A study of Mus musculus with 11 samples.

Results

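Alveolar macrophages lavaged 20 days after the acute phase of a CpG-driven model of macrophage activation syndrome were compared with macrophages lavaged in that acute phase. The arrays were chosen by their titles: 4 resolution arrays (day 30) and 3 acute arrays (day 10), which makes 7 of the 11 arrays in the series. The array table names 19505 genes, and 12143 of them were bright enough to be tested. Each array held macrophages from 1 of 11 mice, females of the inbred strain C57BL/6J that were 6 weeks old when purchased. Acute and resolution mice both received intraperitoneal CpG 1826, 5 times over 10 days. CpG 1826 is a DNA oligonucleotide with unmethylated CpG motifs that engages Toll-like receptor 9. The acute mice were lavaged at day 10, at the end of the injections, and the resolution mice at day 30, with no later injection in the labels. The other 4 arrays are controls that received PBS and were lavaged at day 10. Lavage cells were left to adhere to plastic to enrich macrophages, without a sort. None of the arrays used here is from an untreated mouse at day 30, so the end of CpG, the later day and the greater age of the mice cannot be told apart in this comparison.

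Macrophage activation syndrome is a cytokine storm in which interferon-gamma drives macrophages to secrete inflammatory mediators and to engulf blood cells. Alveolar macrophages are the resident phagocytes of the airspace: they clear surfactant, handle its lipid through PPAR-gamma, take up dust and microbes, and are held in a restrained state by the epithelium they sit on. Sensing of microbial DNA feeds NF-kB, which switches on cytokine, chemokine and feedback inhibitor genes, whereas interferon-gamma acts on antigen presentation genes, guanylate-binding proteins and the CXCR3 ligand Cxcl9. NRF2 is the transcription factor that keeps glutathione, thioredoxin and heme-degrading enzymes supplied under oxidative load.

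The 11 arrays were alike in brightness, with median intensities of 51.4 to 57.0 and 8731 to 8952 genes above the background of the antigenomic probes (probes that match no mouse sequence). Levels are given as log2(intensity + 1), on which this background lay between 6.12 and 6.24. A difference on this scale understates the change of a gene near the background, so a fold whose dimmer group was at the background is given as at least that large. Acute arrays correlated with one another at 0.992 to 0.994, resolution arrays at 0.99 to 0.995, and acute with resolution arrays at 0.978 to 0.986 (Pearson's r across genes, which are not independent replicates). The number of arrays limits the precision, and the median standard deviation of a gene was 0.18 among acute and 0.21 among resolution arrays. The labelled cell type was borne out by its markers: 34 of 34 measured alveolar macrophage identity genes were above background on every array. Their mean level was 14.07 ± 0.04 (SD, n = 3) in acute and 14.19 ± 0.07 (SD, n = 4) in resolution macrophages.

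Resolution macrophages differed from acute macrophages in 1755 of 12143 genes (14.5%) by limma with Benjamini-Hochberg adjusted p under 0.05, the rule for every statement below that a gene rose, fell or passed. Of these genes 943 (7.77%) rose and 812 (6.69%) fell in resolution. At least a 2-fold change was reached by 265 genes that rose (2.18%) and 223 that fell (1.84%), and at least a 4-fold change by 29 (0.239%) and 44 (0.362%). For scale, the same fit called 23 genes higher (0.189%) and 6 lower (0.0494%) in acute than in control arrays, and 1166 higher (9.6%) and 1093 lower (9%) in resolution than in control arrays, or 29 (0.239%) and 2259 (18.6%) in all; these comparisons share arrays with the one described here. The split between directions depended on the scaling: 53.7% of the called genes rose on the values as deposited, 40.5% after scaling the arrays to a common median and 37.3% after quantile normalization, each of which gave all genes a median difference of -0.07. No gene called under either scaling and here changed its direction. Without acute replicate 1 the count was 1069, with 550 higher and 519 lower.

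**Figure D1:**
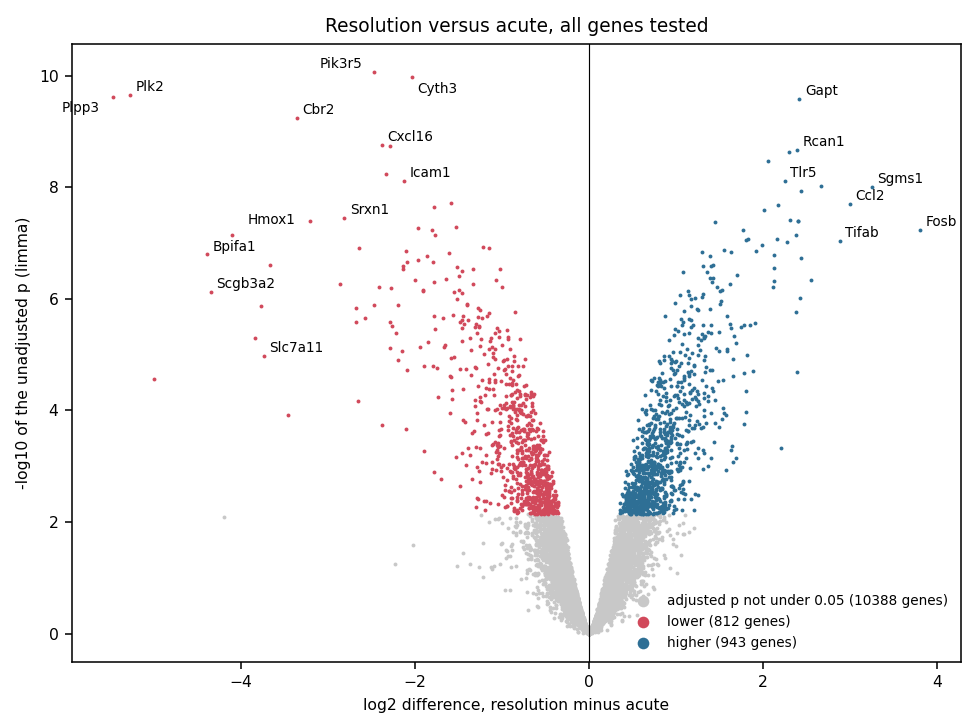
Difference of each tested gene between resolution and acute macrophages (x axis, log2, resolution minus acute) against the limma p-value (y axis, minus log10 of the unadjusted p). Each point is 1 of 12143 genes, coloured by whether it rose (943), fell (812) or did not pass; the labelled genes Plpp3 and Plk2 lie farthest to the left and Fosb farthest to the right.

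Plpp3 and Plk2 fell more than any other gene named here. Plpp3 was at 13.38, 13.24 and 12.81 on the acute arrays and at 7.81, 7.68, 7.43 and 7.73 on the resolution arrays, a fall of 44.6-fold (-5.48 ± 0.30), where the parentheses give the log2 difference with its standard error. Plpp3 encodes a membrane phosphatase that breaks down lysophosphatidic acid and related lipids. Plk2 was at 12.18, 11.02 and 11.21 on the acute arrays and at 6.82, 6.07, 5.89 and 6.01 on the resolution arrays, a fall of at least 38.8-fold (-5.28 ± 0.29). On the resolution arrays it was at or near background. Plk2 is a polo-like kinase of the stress and early growth response. Both genes were bright in controls, at 14.09 ± 0.71 and 12.24 ± 0.30 (mean ± SD, n = 4), above the acute means, so the resolution arrays stood below both other groups. By limma neither gene passed in acute against control (adjusted p = 0.336 and 0.443), and both were lower in resolution than in control macrophages (adjusted p = 6.8e-08 for each). The 20 largest falls and 20 largest rises named here were chosen among called genes whose acute and resolution arrays do not overlap, which was true of 3197 of 12143 genes tested (26.3%), 1634 higher (13.5%) and 1563 lower (12.9%).

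The genes with the smallest p included signalling genes with moderate folds and little spread. Pik3r5 was at 13.01, 12.79 and 13.18 on the acute arrays and at 10.43, 10.59, 10.59 and 10.49 on the resolution arrays, which is 5.53-fold lower (adjusted p = 6.31e-07). Pik3r5 is the regulatory subunit of PI3-kinase gamma, the form coupled to chemoattractant receptors. Cyth3, an exchange factor for ARF GTPases that binds the PI3-kinase product PIP3, was 4.11-fold (-2.04 ± 0.11) lower. The largest falls also held Bcl6, a transcriptional repressor that restrains chemokine genes in macrophages, 6.43-fold (-2.68 ± 0.33) lower, and Met, the receptor of hepatocyte growth factor, at least 3.84-fold (-2.86 ± 0.31) lower. Control levels were 9.70 ± 0.43 for Bcl6 and 8.89 ± 0.28 for Met, again on the side of the acute arrays.

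Among genes that rose, the AP-1 subunit Fosb led. Fosb was at 9.51, 10.03 and 9.30 on the acute arrays and at 12.46, 13.78, 13.98 and 13.45 on the resolution arrays, a rise of 14-fold (3.81 ± 0.33) with adjusted p = 2.14e-05. Every resolution array was above every acute array, and the control level was 9.14 ± 0.42. Sgms1, which makes sphingomyelin from ceramide in the Golgi, was at 8.02, 7.25 and 8.08 in acute and at 11.18, 10.80, 10.67 and 11.47 in resolution macrophages, a rise of 9.50-fold (3.25 ± 0.24). Ccl2, the chemokine that draws CCR2+ monocytes, was near background on the acute arrays at 6.68, 6.24 and 6.04 and stood at 9.90, 8.81, 9.34 and 9.20 on the resolution arrays, a rise of 7.97-fold (2.99 ± 0.24). All 4 resolution arrays were higher for all 3 genes, which follows from how the largest rises were chosen.

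Signalling adaptors, surface receptors and transporters were among the other large rises. Tifab, an inhibitor of TIFA and TRAF6 signalling, rose 7.35-fold (2.88 ± 0.26), and Themis2, a signalling adaptor of myeloid and B cells, rose 5.84-fold (2.55 ± 0.27). Gapt, a GRB2-binding adaptor, was below background on acute arrays and rose at least 3.17-fold (2.41 ± 0.13). The short-chain fatty acid receptor Ffar2 rose 6.36-fold (2.67 ± 0.20), the C5a receptor C5ar2 5.29-fold (2.40 ± 0.20), the IL-6 receptor chain Il6ra 5.25-fold (2.39 ± 0.36) and the Wnt receptor Fzd4 4.97-fold (2.31 ± 0.20). These receptors sense bacterial metabolites, complement, cytokines and Wnt ligands at the cell surface. Abcd2, a peroxisomal transporter of very-long-chain fatty acids, rose 5.40-fold (2.43 ± 0.24), and Slco2b1, an organic anion transporter, 4.90-fold (2.29 ± 0.15). Also among the 20 were Trerf1 (5.43-fold), the ubiquitin ligase Trim47 (at least 4.43-fold), the DNA polymerase delta subunit Pold1 (5.18-fold) and the kinase Stk38l (4.83-fold). The 20 rises spanned log2 differences of 2.25 to 3.81 and the 20 falls -2.58 to -5.48.

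**Figure D2:**
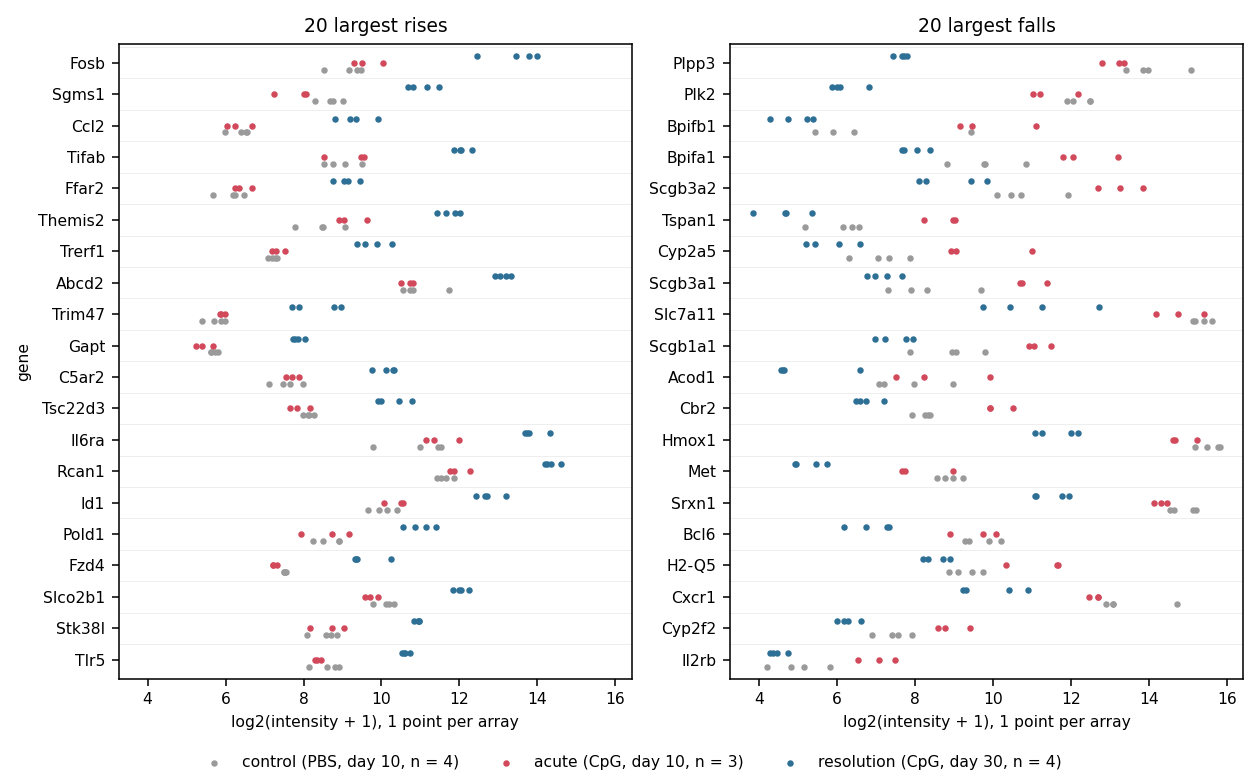
Levels on single arrays (x axis, log2(intensity + 1)) of the 20 genes with the largest fall and the 20 with the largest rise between acute and resolution macrophages, chosen among genes whose acute and resolution arrays do not overlap. Each point is 1 array, coloured by group (4 control, 3 acute, 4 resolution). The widest gap is that of Plpp3, with acute arrays at 12.81 to 13.38 and resolution arrays at 7.43 to 7.81.

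Airway epithelial transcripts made up part of the largest falls. Of the 20 falls, 5 were genes of the lung epithelium marker list: the secretoglobins Scgb1a1 (12.7-fold lower), Scgb3a1 (13.6-fold) and Scgb3a2 (20.4-fold), the airway lining protein Bpifa1 (21.0-fold) and the club cell enzyme Cyp2f2 (6.25-fold). Bpifb1, Cyp2a5, Tspan1 and Cbr2, which were not used as epithelial markers here but are also abundant in airway cells, fell at least 13.2-fold, at least 11.1-fold, at least 5.89-fold and 10.3-fold. Scgb3a2 was at 13.86, 13.27 and 12.70 on the acute arrays and at 8.28, 9.43, 8.11 and 9.86 on the resolution arrays. Cbr2 is also on the interstitial macrophage list, of whose 11 tested members 2 fell (1 without acute replicate 2 or resolution replicate 2) and 0 rose. The share called in that list was 18.2%, near the 14.5% over all genes tested. Across the 16 epithelial list members tested, 9 fell and 1 rose (0 without acute replicate 1 or 3 or resolution replicate 2 or 4, and 2 without control replicate 2 or 4), with a median difference of -1.10 against -0.0013 over all genes tested. The summed intensity of the 18 listed genes on the array was 28516 to 48215 on acute, 17944 to 20413 on resolution and 16801 to 23869 on control arrays. Sftpb, Krt18, Muc5b and Dynlrb2 were above background on no CpG array. In these unsorted lavage cells, fewer cells of a type and less RNA per cell cannot be told apart, and the part of epithelial RNA in any other result below was not tested.

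Most lymphocyte markers were not above background, neutrophil markers were mixed, and a few of both moved with the groups. Of 12 neutrophil genes on the array, 6 were above background on every acute and 4 on every resolution array. The NK and cytotoxic list had 3 of 4 tested members lower and 0 higher (1 higher without acute replicate 2), 5 lower with no filter on low values and 1 lower where the mean of the CpG arrays had to exceed background. It held Il2rb, a chain of the IL-2 and IL-15 receptors, at least 1.80-fold (-2.58 ± 0.31) lower and the NK receptor Klrd1 at least 2.49-fold (-1.45 ± 0.24) lower. The defining genes Nkg7, Gzma, Gzmb, Prf1, Klrb1c and Ncr1 were above background on no CpG array, and the summed intensity of the 13 genes was 556 to 681 on acute and 311 to 326 on resolution arrays. Cd3d was the single T cell marker of 7 tested that fell, at least 1.28-fold (-1.52 ± 0.17), and was not tested where that mean had to exceed background, while Cd3e and Cd3g were above background on no CpG array. The share called in the T cell list was 14.3%, against 14.5% over all genes tested. Of 7 neutrophil markers tested, Ltf fell at least 1.76-fold (-2.29 ± 0.28), Cxcr2 fell 2.00-fold (-1.0 ± 0.14) and Csf3r rose 1.65-fold (0.73 ± 0.16), of which Ltf was too dim for that stricter filter. Summed neutrophil intensity was 4778 to 5769 on acute and 4553 to 8061 on resolution arrays, with Camp, Ngp and Elane above background on none of them. In the monocyte list 3 of 9 tested members rose and 1 fell (1 and 1 without acute replicate 2, 1 and 0 without acute replicate 1, 3 and 3 with no filter on low values). The orphan receptor Nr4a1, which is also on the immediate early list, led the rises, and Treml4 was the fall, 2.40-fold (-1.26 ± 0.30). Ly6c2 and F13a1 were above background on no CpG array. Of 6 tested dendritic cell markers 66.7% were called, against 14.5% over all genes tested. Batf3 was 2.72-fold (1.45 ± 0.27) higher, and the 3 dim members Xcr1, Siglech and Itgae were lower. Those falls became 0 without acute replicate 2 or where the mean of the CpG arrays had to exceed background. They became 1 without acute replicate 1 or resolution replicate 4, or with the replicate number as a block. By limma 0 of the tested B cell, eosinophil and mast cell, endothelial or fibroblast markers passed. An unadjusted p under 0.05 was reached by 1 of these 13, against 28.8% of all genes tested. Acute replicate 1 stood apart for red cell RNA: Alas2, the heme synthesis enzyme of red cell precursors, was at 15.15, 6.99 and 9.26 on the acute arrays and at 7.25, 6.67, 5.54 and 5.62 on the resolution arrays (adjusted p = 0.0546, not past the threshold). The parts of these cells in the results were not tested.

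**Figure D3:**
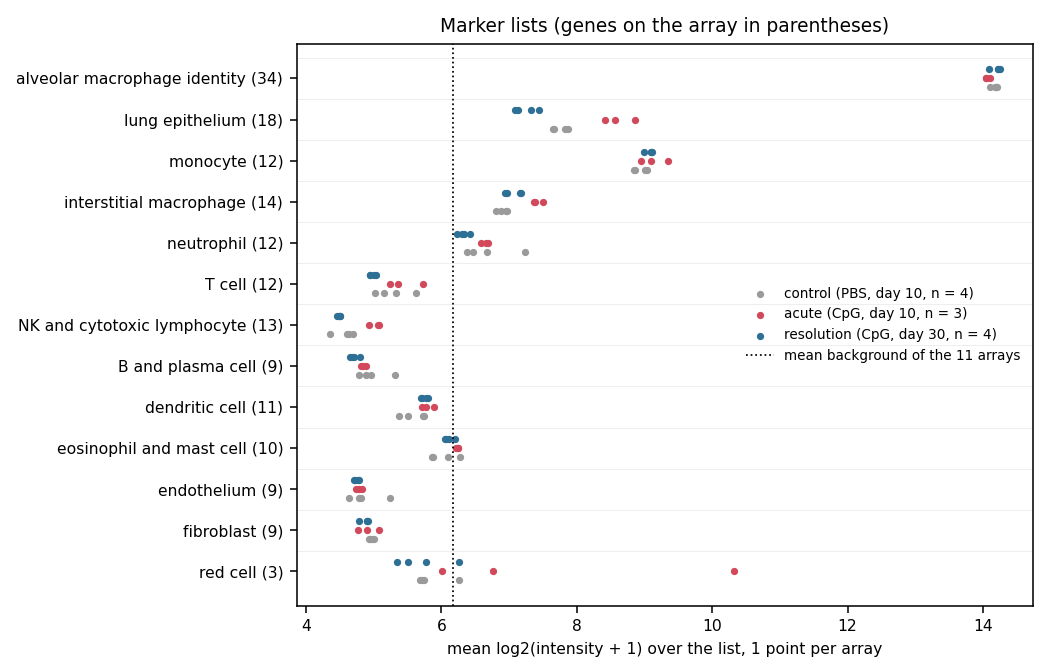
Mean level of each marker list on single arrays (x axis, log2(intensity + 1), mean over the list's genes on the array) for 3 acute, 4 resolution and 4 control arrays, 1 point per array, with the mean background dotted. Alveolar macrophage identity genes lie near 14 in all groups, lung epithelium genes lie at 8.42 to 8.86 on acute and 7.09 to 7.45 on resolution arrays, and the red cell list is spread by 1 acute array.

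The NF-kB list fell without exception among its called members. Of 25 tested cytokines and NF-kB targets 15 fell and 0 rose, with a median difference of -0.71, and 12 to 16 fell when single arrays were left out. Tnfaip3 was at 14.06, 14.03 and 13.76 on the acute arrays and at 12.26, 10.56, 11.48 and 11.60 on the resolution arrays, a fall of 5.55-fold (-2.47 ± 0.29) in the gene of the A20 ubiquitin-editing enzyme, itself a feedback inhibitor of NF-kB. Icam1 was at 15.23, 14.97 and 15.28 on the acute arrays and at 13.31, 12.86, 13.19 and 12.77 on the resolution arrays, a fall of 4.37-fold (-2.13 ± 0.16) in the adhesion molecule that binds leukocyte integrins. Neither gene had overlapping arrays. Several regulators of the pathway fell with its targets. The IkB protein Nfkbie fell at least 3.92-fold (-2.01 ± 0.21), the IkB protein Bcl3 4.30-fold (-2.11 ± 0.20) and the subunit Nfkb2 3.41-fold (-1.77 ± 0.16). The mitochondrial superoxide dismutase Sod2, a classical NF-kB target, fell 2.88-fold (-1.53 ± 0.13). For these genes the control means were near the acute means, with 13.89 ± 0.09 for Tnfaip3, 14.98 ± 0.16 for Icam1 and 14.33 ± 0.19 for Nfkb2.

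Of 12 fallen members of the NF-kB list with a promoter window, 6 (50%) held the kappa B letters GGGNNTTCC on either strand, against 9.2% of the windows of all fallen genes, 5.17% of those of all risen genes and 6.94% of 9901 windows of all tested genes. The list was drawn up from NF-kB targets and its members that did not fall were not counted, so these shares cannot tell whether the letters go with the fall. The windows are RefSeq promoters of build GRCm38.p6, from 250 bases before to 50 after a gene's start, and a match is a description of letters, not a binding site or a cause. Those of Nfkbie (chr17:45555450-45555749, plus strand) and Bcl3 (chr7:19822706-19823005, minus strand) are shown because both encode IkB proteins that fell, with the kappa B letters in capitals and read 5′ to 3′ on the gene's strand. With the start base as position 0, the match in Nfkbie began at position -105, and those in Bcl3 began at -104 and 3.
Nfkbie: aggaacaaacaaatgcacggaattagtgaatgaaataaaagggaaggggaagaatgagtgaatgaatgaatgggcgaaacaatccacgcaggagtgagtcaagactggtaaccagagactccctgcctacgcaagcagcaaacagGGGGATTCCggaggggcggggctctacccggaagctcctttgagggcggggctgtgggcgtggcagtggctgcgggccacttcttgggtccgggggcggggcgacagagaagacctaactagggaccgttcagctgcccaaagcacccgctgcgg
Bcl3: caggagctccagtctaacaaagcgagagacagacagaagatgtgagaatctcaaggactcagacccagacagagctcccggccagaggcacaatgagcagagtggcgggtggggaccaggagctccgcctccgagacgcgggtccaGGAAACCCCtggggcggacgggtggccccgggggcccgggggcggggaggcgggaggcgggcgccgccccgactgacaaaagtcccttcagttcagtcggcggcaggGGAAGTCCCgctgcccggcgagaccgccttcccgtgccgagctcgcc

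Of the 6 cytokine genes and inhibitors always looked at (Il1b, Tnf, Il6, Il10, Il18 and Il18bp), Il6 alone passed. Il1b was at 15.51, 15.84 and 15.45 in acute and at 15.60, 15.31, 15.23 and 16 in resolution macrophages (difference -0.06 ± 0.20, adjusted p = 0.881), and Tnf differed by 0.10 ± 0.17 (adjusted p = 0.765). Both genes were far above background in both groups and their arrays overlapped. Il18, the cytokine raised in macrophage activation syndrome, differed by 0.20 ± 0.10 (adjusted p = 0.214), and its soluble inhibitor Il18bp by -0.51 ± 0.20 (adjusted p = 0.103). Il10 was above background on no array of either group. Il6 was dim, at 7.11, 6.68 and 6.80 on acute and 5.69, 5.79, 5.91 and 6.73 on resolution arrays, and its fall of -0.83 ± 0.23 (adjusted p = 0.0321) passed although the arrays overlapped. That call ended without any 1 acute array, without resolution replicate 1, 2 or 3, in the fit of the 7 CpG arrays and with the replicate number as a block (adjusted p = 0.0505 to 0.13). Tlr9, the receptor of CpG DNA, was too dim to be tested, with group means of 4.63 in acute and 4.54 in resolution macrophages.

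Antioxidant genes that passed all fell, led by those of glutathione supply and heme breakdown. Of 26 tested members 15 fell and 0 rose, with a median difference of -0.57, and 11 to 15 fell when single arrays were left out. Hmox1 was at 15.24, 14.68 and 14.61 on the acute arrays and at 12.19, 11.26, 12 and 11.08 on the resolution arrays, a fall of 9.27-fold (-3.21 ± 0.27) in heme oxygenase, which turns heme into biliverdin, iron and carbon monoxide. Slc7a11, the cystine importer that feeds glutathione synthesis, was at 15.42, 14.20 and 14.75 in acute and 12.73, 10.45, 11.27 and 9.75 in resolution macrophages, a fall of 13.4-fold (-3.74 ± 0.53). Both genes are among the largest falls, which were chosen without overlapping arrays. Both subunits of the enzyme that limits glutathione synthesis fell, Gclc 3.77-fold (-1.91 ± 0.21) and Gclm 3.21-fold (-1.68 ± 0.20). The peroxiredoxin repair enzyme Srxn1 fell 7.05-fold (-2.82 ± 0.24) and thioredoxin reductase Txnrd1 3.07-fold (-1.62 ± 0.15). Control means were 15.57 ± 0.30 for Hmox1, 15.35 ± 0.22 for Slc7a11 and 13.02 ± 0.32 for Gclc, above the acute means in each case. By limma the difference between acute and control did not pass for these genes (adjusted p = 0.443, 0.801 and 0.418). Each was lower in resolution than in control macrophages (limma adjusted p = 1.7e-06, 7.2e-05 and 4.3e-06).

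Iron handling genes that passed also fell. Of 24 tested members of the iron and heme list, 7 fell and 0 rose (median difference -0.13), and 5 to 7 fell when single arrays were left out. The share called was 29.2%, against 14.5% over all genes tested. A fallen member was above background on no array. Slc40a1, the iron exporter ferroportin, fell 3.32-fold (-1.73 ± 0.29) against acute, with a control mean of 9.17 ± 0.55. The divalent metal importer Slc11a2 fell 2.56-fold (-1.35 ± 0.19), and biliverdin reductase Blvrb, which acts on the product of heme oxygenase, fell 1.94-fold (-0.96 ± 0.16). Hmox1 belongs to this list as well.

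Of 11 fallen antioxidant genes with a promoter window, 4 (36.4%) held the antioxidant response letters TGACNNNGC on either strand, against 17.3% of fallen, 15.1% of risen and 14.6% of all tested genes. The list was chosen for the antioxidant response and its members that did not fall were not counted, so the share cannot tell whether the letters go with the fall. These letters can overlap the AP-1 letters TGACTCA. The window of Gclm (chr3:122245307-122245606, plus strand) is shown because it encodes the modifier subunit of the enzyme that limits glutathione synthesis, with the letters in capitals, beginning at position -134.
Gclm: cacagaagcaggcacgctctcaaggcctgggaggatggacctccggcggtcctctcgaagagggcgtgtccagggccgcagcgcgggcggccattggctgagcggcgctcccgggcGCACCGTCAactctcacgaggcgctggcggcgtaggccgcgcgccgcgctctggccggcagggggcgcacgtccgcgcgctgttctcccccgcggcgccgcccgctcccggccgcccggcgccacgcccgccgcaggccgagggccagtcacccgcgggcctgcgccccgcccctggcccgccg

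Of 28 tested interferon-gamma genes 13 fell, 2 rose and 13 did not pass, with a median difference of -0.47, and 12 to 14 fell when single arrays were left out. The 2 rises became 0 or 1 without control replicate 1 or 4 or any 1 CpG array. Cxcl9, which recruits CXCR3+ lymphocytes, was at 7.62, 8.63 and 8.17 in acute and 5.80, 6.42, 5.55 and 5.70 in resolution macrophages, a fall of at least 3.86-fold (-2.27 ± 0.28), against a control mean of 5.45 ± 0.44. Acod1, the enzyme that makes itaconate, was at 9.92, 7.53 and 8.25 in acute and 6.59, 4.62, 4.58 and 4.64 in resolution macrophages, a fall of at least 5.19-fold (-3.46 ± 0.63). The acute arrays were above background for both genes, and most resolution arrays were not. The class I gene H2-Q5, whose probes may also read other H2-Q genes, fell 6.40-fold (-2.68 ± 0.31). The guanylate-binding protein Gbp2 fell 2.45-fold (-1.29 ± 0.23), the immunity GTPase Irgm1 2.23-fold (-1.16 ± 0.19) and the checkpoint ligand Cd274 (PD-L1) 2.22-fold (-1.15 ± 0.14). Control means were 9.30 ± 0.39 for H2-Q5, 5.86 ± 0.41 for Gbp2, 13.82 ± 0.13 for Cd274, 7.81 ± 0.88 for Acod1 and 6.90 ± 0.37 for Irgm1. By limma Cxcl9, H2-Q5 and Gbp2 were higher in acute than in control macrophages (adjusted p = 0.0029, 0.0269 and 0.0040). In resolution Gbp2 was still higher than in control macrophages (0.67 ± 0.22, limma adjusted p = 0.0474), and Cxcl9 and H2-Q5 did not pass (limma adjusted p = 0.307 and 0.0924). Cd274, Acod1 and Irgm1 did not pass in acute against control (limma adjusted p = 0.785, 0.758 and 0.397). These same genes were lower in resolution than in control macrophages (limma adjusted p = 1.67e-04, 0.0063 and 0.0256).

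Type I interferon genes were called in 19.0% of tested members, against 14.5% over all genes tested. Of 21 tested members 3 fell and 1 rose (median difference -0.31), and scaling the arrays to a common median or by quantiles raised the falls to 6; there were 5 with no filter, with the stricter filter on the CpG arrays' mean, with a pseudocount of 16 or with a variance prior that follows the mean level. Ifi211, a DNA-sensing family member, fell 2.49-fold (-1.31 ± 0.17), Irf9, the DNA-binding part of the type I interferon complex, 1.78-fold (-0.83 ± 0.14), and the ubiquitin-like Isg15 at least 1.33-fold (-1.05 ± 0.23). The single rise did not pass without acute replicate 1 or 3. Whether the 2 interferon lists differ was not tested. In class II antigen presentation 5 of 14 tested members fell and 1 rose. There were 3 falls without acute replicate 1 or resolution replicate 3, 2 without acute replicate 3, 1 without acute replicate 2 and 2 with the replicate number as a block. H2-Eb1, a class II beta chain, fell 1.55-fold (-0.63 ± 0.13). The costimulators on the list split: Cd80 rose 2.30-fold (1.20 ± 0.19) and Cd86 was among the falls, 1.64-fold (-0.71 ± 0.17).

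Of 11 fallen interferon-gamma genes with a promoter window, 5 (45.5%) held the interferon response letters GAAANNGAA on either strand, against 8.9% of fallen, 5.8% of risen and 7.44% of all tested genes. The gamma-activated letters TTCNNNGAA stood in 1 of the 11 (9.09%), against 7.39% of all. The list was chosen for induction by interferon-gamma and its members that did not fall were not counted, so these shares cannot tell whether the letters go with the fall. Cxcl9 (chr5:92328030-92328329, minus strand) and Isg15 (chr4:156200769-156201068, minus strand) are shown as a gene of each interferon list, with the response letters in capitals. The match began at position -175 in Cxcl9, and 3 overlapping matches began at -78, -72 and -66 in Isg15.
Cxcl9: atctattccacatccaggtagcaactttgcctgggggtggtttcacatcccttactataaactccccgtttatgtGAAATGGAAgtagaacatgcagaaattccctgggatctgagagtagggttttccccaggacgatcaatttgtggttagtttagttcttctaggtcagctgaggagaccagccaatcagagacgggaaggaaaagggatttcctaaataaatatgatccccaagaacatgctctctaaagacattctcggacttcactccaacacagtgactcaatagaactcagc
Isg15: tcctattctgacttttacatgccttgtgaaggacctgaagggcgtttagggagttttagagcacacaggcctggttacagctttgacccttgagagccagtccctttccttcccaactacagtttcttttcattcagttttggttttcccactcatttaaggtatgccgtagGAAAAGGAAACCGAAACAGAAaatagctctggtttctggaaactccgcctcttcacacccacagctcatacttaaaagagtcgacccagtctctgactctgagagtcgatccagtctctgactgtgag

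**Figure D4:**
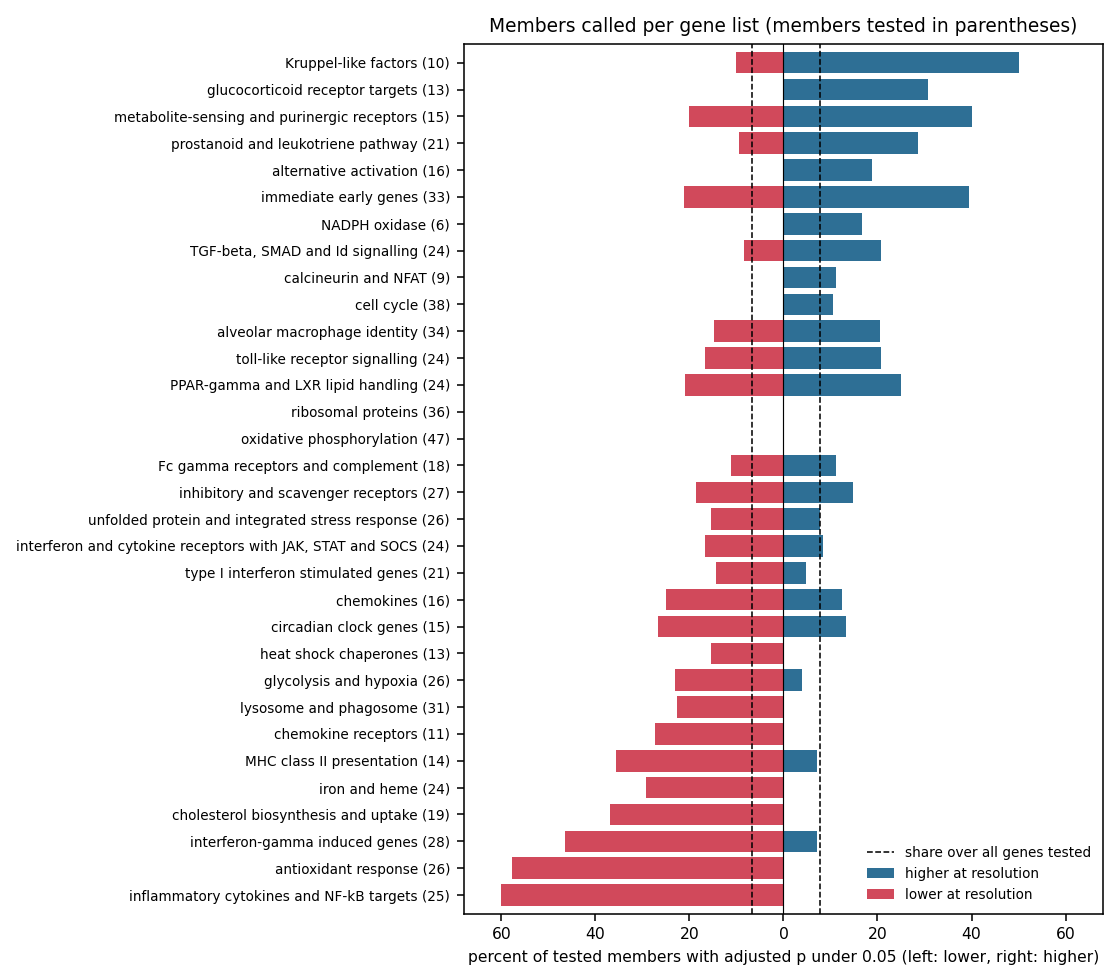
Percent of the tested members of each pathway list that rose (bars to the right) or fell (bars to the left) in resolution against acute macrophages (x axis, percent with adjusted p under 0.05, with the number tested after each name). The dashed lines mark the shares over all genes tested, 7.77% risen and 6.69% fallen. Antioxidant and NF-kB lists each had 15 falls and 0 rises, the interferon-gamma list 13 falls and 2 rises, and the immediate early list 13 rises and 7 falls.

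Immediate early genes, which respond to a stimulus without new protein synthesis, rose in 13 and fell in 7 of 33 tested members, with a median difference of 0.42. Without acute replicate 3 there were 8 rises. Beside Fosb, the orphan nuclear receptors Nr4a2 and Nr4a1 rose 3.5-fold (1.81 ± 0.30) and 2.90-fold (1.54 ± 0.27). The G protein regulator Rgs2 rose 3.43-fold (1.78 ± 0.27). The growth arrest gene Gadd45a went the other way, at 9.31, 9.16 and 9.24 in acute and 7.19, 7.58, 7.13 and 6.45 in resolution macrophages, a fall of 4.43-fold (-2.15 ± 0.30). The list therefore did not move as 1 block.

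Transcription factors of the Kruppel-like family rose in 5 of 10 tested members and fell in 1 (median difference 1.12), and 4 to 6 rose when single arrays were left out. With no filter on low values 5 of 17 rose and 1 fell, and the median difference was 0.18. Klf13 was at 11.39, 11.87 and 11.30 in acute and 13.39, 13.85, 13.73 and 13.57 in resolution macrophages, a rise of 4.33-fold (2.12 ± 0.23). Klf4, a factor of monocyte and alternative macrophage differentiation, rose 3.41-fold (1.77 ± 0.15), Klf10 2.68-fold (1.42 ± 0.14) and Klf9, a glucocorticoid-induced member, 2.45-fold (1.29 ± 0.15). Klf6, a factor that promotes NF-kB targets in macrophages, was the member that fell, 1.98-fold (-0.98 ± 0.17). Glucocorticoid receptor targets rose in 4 of 13 tested members and fell in none (median difference 0.26), with 2 rises without acute replicate 1. A risen member was above background on no array, and 3 rose where the mean of the CpG arrays had to exceed background. The best known of these targets, Tsc22d3 (GILZ), was at 7.66, 7.84 and 8.17 in acute and 9.91, 10.79, 10.46 and 10.00 in resolution macrophages, a rise of 5.26-fold (2.40 ± 0.20). Of 15 tested clock genes 2 rose and 4 fell, but 1 rose without acute replicate 1 or 3, 1 fell without acute replicate 3, and 2 fell without acute replicate 2 or resolution replicate 1 or 3. A fallen clock gene was above background on no array. The repressor Per2 rose 4.35-fold (2.12 ± 0.21) and Bhlhe41, a clock repressor and alveolar macrophage factor, fell 2.24-fold (-1.16 ± 0.17). The hour of lavage is not given in the labels.

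In TGF-beta, SMAD and Id signalling 5 of 24 tested members rose and 2 fell (3 rises without any 1 acute array or resolution replicate 1 or 4). That is a share of 29.2% called, against 14.5% over all genes tested. Id1, a dominant-negative helix-loop-helix factor, rose 5.19-fold (2.38 ± 0.21), the SMAD corepressor Ski 2.26-fold (1.18 ± 0.14) and the ligand Tgfb2 2.01-fold (1.01 ± 0.20). Tgif1, another SMAD corepressor, fell 3.13-fold (-1.64 ± 0.17), and Id2 fell 1.66-fold (-0.73 ± 0.12). The calcineurin and NFAT list of 9 tested genes had 1 rise (2 without control replicate 4, acute replicate 2 or resolution replicate 2, 3 with a pseudocount of 16 or where the mean of the CpG arrays had to exceed background, and 2 with a variance prior that follows the mean level) and 0 falls (1 without resolution replicate 2). The share called was 11.1%, against 14.5% over all genes tested. The rise was that of Rcan1, an inhibitor of calcineurin induced by its own pathway. Rcan1 was at 11.87, 12.26 and 11.76 on the acute arrays and at 14.61, 14.20, 14.35 and 14.25 on the resolution arrays, a rise of 5.24-fold (2.39 ± 0.16).

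Chemokines changed in both directions. Of 16 tested members 2 rose and 4 fell. Beside Ccl2, the related monocyte chemokine Ccl7 rose at least 1.76-fold (1.55 ± 0.15) from below background. Cxcl16, the membrane-bound ligand of CXCR6, was at 14.14, 14.04 and 13.86 in acute and 11.73, 11.82, 11.53 and 11.44 in resolution macrophages, a fall of 5.22-fold (-2.38 ± 0.16). The CCR4 ligand Ccl22 fell 2.83-fold (-1.50 ± 0.16), and Cxcl9 is described above. The neutrophil chemokine Cxcl2 was the fourth fall, 2.39-fold (-1.26 ± 0.32). It did not pass in limma without acute replicate 1 (adjusted p = 0.0945) or 2 (adjusted p = 0.0622). The 2 chemokines that rose are both ligands of CCR2. Among 11 tested chemokine receptors 3 fell and 0 rose (1 rose without resolution replicate 3), and a fallen member was above background on no array. The share called among these receptors was 27.3%, against 14.5% over all genes tested. The IL-8 receptor homologue Cxcr1 fell 6.30-fold (-2.65 ± 0.45) against acute, with a control mean of 13.45 ± 0.85. Ccr2 itself differed by 0.56 ± 0.22 (adjusted p = 0.123) and was near background.

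Toll-like receptor genes rose in 5 and fell in 4 of 24 tested members, and 3 rose without any 1 acute array or resolution replicate 3. Tlr5, the flagellin receptor, was at 8.29, 8.34 and 8.45 in acute and 10.57, 10.59, 10.74 and 10.53 in resolution macrophages, a rise of 4.74-fold (2.25 ± 0.17). Tlr3, which binds double-stranded RNA, rose 2.92-fold (1.54 ± 0.28). The lipopolysaccharide coreceptor Cd14 was at 14.43, 14.52 and 13.95 in acute and 12.67, 12.92, 12.64 and 13.13 in resolution macrophages and fell 2.76-fold (-1.46 ± 0.18), and the signalling factor Irf5 fell 1.69-fold (-0.76 ± 0.13). Among cytokine receptors and their JAK, STAT and SOCS partners, 2 of 24 rose and 4 fell (25% called, against 14.5% over all genes tested), with 2 falls without acute replicate 3 or resolution replicate 3. Il6ra led the rises, the feedback inhibitor Socs2 rose 2.05-fold (1.03 ± 0.22), and the kinase Jak2 and the factor Stat5a fell 1.86-fold (-0.90 ± 0.18) and 1.53-fold (-0.62 ± 0.13).

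Receptors for metabolites and nucleotides rose in 6 and fell in 3 of 15 tested members (1 fall without control replicate 1 or 2, any 1 acute array or resolution replicate 2 or 3, 4 rises under either scaling and 1 fall with the replicate number as a block). P2ry6, the UDP receptor, rose 4.36-fold (2.13 ± 0.20), P2ry13, an ADP receptor, 2.53-fold (1.34 ± 0.19) and Ffar4, the receptor of long-chain omega-3 fatty acids, 3.01-fold (1.59 ± 0.19). Gpr132 fell at least 2.43-fold (-1.56 ± 0.22). In the prostanoid and leukotriene pathway 6 of 21 rose and 2 fell, with 3 rises without acute replicate 1 and 1 fall without acute replicate 1 or 3 or resolution replicate 3. The prostaglandin E receptors Ptger4 and Ptger1 rose 2.37-fold (1.25 ± 0.15) and 2.02-fold (1.01 ± 0.16), while the prostacyclin receptor Ptgir was at 9.89, 8.93 and 9.36 in acute and 7.10, 7.20, 7.51 and 6.60 in resolution macrophages, a fall of 4.89-fold (-2.29 ± 0.31). Inhibitory and scavenger receptors split as well, with 4 rises and 5 falls in 27 (2 rises without acute replicate 1, and 3 falls without control replicate 1, acute replicate 2 or resolution replicate 2, 3 or 4). The inhibitory lectin Siglece rose 2.32-fold (1.21 ± 0.20) and the inhibitory receptor Pirb 1.52-fold (0.61 ± 0.11), whereas the activating lectins Clec4e (Mincle) and Clec4d fell 2.45-fold (-1.30 ± 0.16) and 2.38-fold (-1.25 ± 0.17). Of 18 Fc gamma receptor and complement genes tested 2 rose and 2 fell (22.2% called, against 14.5% over all genes tested). C5ar2 kept its call in every alternative, whereas the other rise was lost without control replicate 1 or any 1 CpG array, and 0 or 1 fell without any 1 acute array or resolution replicate 2, 3 or 4.

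**Figure D5:**
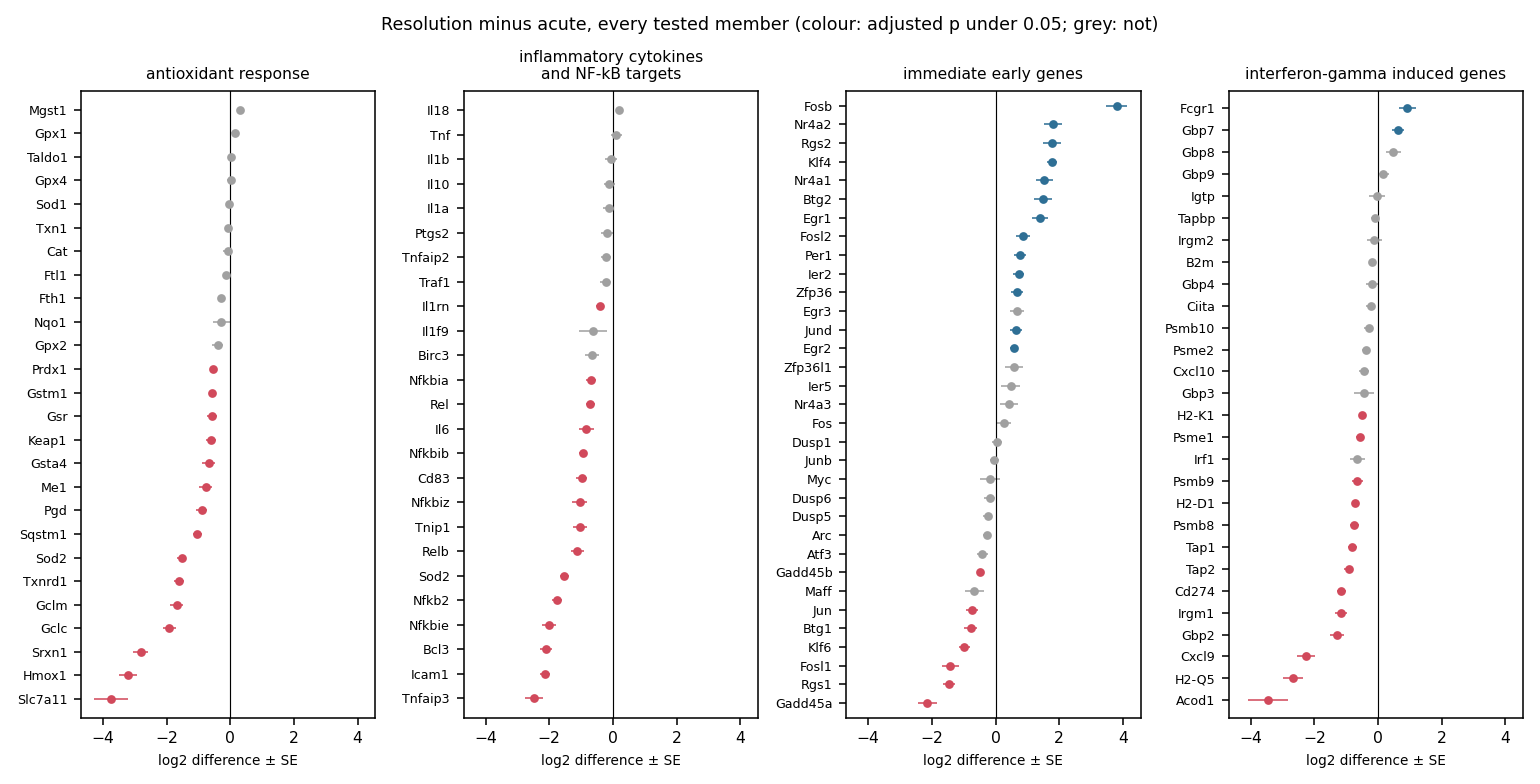
Log2 difference (x axis, resolution minus acute) of every tested member of 4 pathway lists, 1 point per gene with its standard error, coloured where the gene rose or fell and grey where it did not pass. The 15 members of the NF-kB and the 15 of the antioxidant list that passed lie left of 0, whereas immediate early genes that passed lie on both sides.

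Cholesterol synthesis and uptake genes fell in 7 of 19 tested members and rose in none (median difference -0.61), with 3 falls without acute replicate 1 and 4 without resolution replicate 3. Fdft1 (squalene synthase) fell 1.99-fold (-0.99 ± 0.14), Stard4, a sterol carrier, 1.94-fold (-0.96 ± 0.15) and Hmgcs1, which makes the precursor of mevalonate, 1.78-fold (-0.83 ± 0.15). In the PPAR-gamma and LXR list 6 of 24 rose and 5 fell, and after scaling to a common median 4 rose and 5 fell. The cholesterol exporter Abcg1 was at 12.40, 12.91 and 12.77 in acute and 14.28, 13.96, 14.26 and 14.29 in resolution macrophages, a rise of 2.84-fold (1.51 ± 0.17). Pparg itself rose 1.79-fold (0.84 ± 0.13), Cidec, a lipid droplet protein, 2.31-fold (1.21 ± 0.18) and Cpt1a, which admits fatty acids to mitochondria, 1.98-fold (0.99 ± 0.14). The PPAR-gamma target Fabp4 and the LXR-alpha gene Nr1h3 fell 2.12-fold (-1.08 ± 0.15) and 2.11-fold (-1.08 ± 0.11), so the targets of these receptors did not move together.

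Of 34 alveolar macrophage identity genes 7 rose and 5 fell (median difference 0.10). Without acute replicate 1 there were 4 rises, and 3 falls were left without any 1 acute array or resolution replicate 2 or 3, or with no filter on low values. Krt19 rose 4.02-fold (2.01 ± 0.16) and Ctsk fell 1.85-fold (-0.89 ± 0.13). The surface markers Siglecf and Marco differed by 0.23 ± 0.15 (adjusted p = 0.346) and -0.05 ± 0.26 (adjusted p = 0.931). The alternative activation list had 3 rises and 0 falls in 16 (1 fall without resolution replicate 2), Klf4 among them and Egr2 1.49-fold (0.58 ± 0.13) higher, while Arg1 was above background on no acute or resolution array. The share called in this list was 18.8%, near the 14.5% over all genes tested, and its median difference was -0.08.

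Energy and housekeeping lists differed in the share of members called, against 14.5% over all genes tested. The share was 0% for oxidative phosphorylation and ribosomal proteins, 10.5% for cell cycle, 15.4% for heat shock and 16.7% for NADPH oxidase genes. It was 22.6% for lysosome and phagosome, 23.1% for unfolded protein response and 26.9% for glycolysis and hypoxia genes. By limma 0 of 47 oxidative phosphorylation genes and 0 of 36 ribosomal protein genes passed, and without resolution replicate 2 there were 2 and 1 falls. An unadjusted p under 0.05 was reached by 0 and 1 of them, against 28.8% of all genes tested. Glycolysis and hypoxia genes fell in 6 of 26 and rose in 1 (2 rises without control replicate 2 or 3 or acute replicate 1, 3 without resolution replicate 4 and 4 without resolution replicate 2): the glucose transporter Slc2a1 fell 1.91-fold (-0.93 ± 0.18), Pgam1 1.78-fold (-0.84 ± 0.16) and Hif1a 1.80-fold (-0.85 ± 0.13), and Ndrg1 rose 2.02-fold (1.02 ± 0.17). Lysosome and phagosome genes fell in 7 of 31 tested members, with 4 falls without acute replicate 1 or 3 or resolution replicate 4, and with 1 rise without resolution replicate 4. The proton pump subunits Atp6v1a and Atp6v1c1 fell 2.16-fold (-1.11 ± 0.18) and 1.83-fold (-0.87 ± 0.15), and Tfe3, a factor of lysosome synthesis, fell 1.80-fold (-0.85 ± 0.15). Of 38 cell cycle genes 4 rose and 0 fell (1 fall without resolution replicate 4, and 3 rises and 2 falls after quantile normalization), among them Ccnd3 2.39-fold (1.26 ± 0.17), E2f1 2.22-fold (1.15 ± 0.16) and Cdc6 1.99-fold (0.99 ± 0.18). Of 13 heat shock genes 2 fell (1 without acute replicate 2 or 3), and of 26 genes of the unfolded protein response 4 fell and 2 rose. Leaving out single arrays gave 1 to 4 falls and 0 to 2 rises in the latter, with 1 or 2 falls without any 1 acute array or resolution replicate 1 or 2 and 0 or 1 rise without control replicate 1, any 1 acute array or resolution replicate 2, 3 or 4. The endoplasmic reticulum chaperone Hspa5, on both lists, fell 1.51-fold (-0.60 ± 0.13). The oxidase subunit Ncf1 rose 1.76-fold (0.81 ± 0.16), the 1 call among 6 NADPH oxidase genes.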

How the data were processed

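RNA of lavaged, adherent macrophages from 11 mice was hybridised to Affymetrix arrays after amplification with a kit that labels from the 3′ end, per the labels' protocols. The authors deposited 1 intensity per transcript cluster and array on a linear scale, made with Affymetrix Expression Console, per the submitters' processing notes; the sources used here do not give its summary method, normalization or genome build. Of 28846 probe sets 19572 had 1 gene symbol in the platform annotation, 0 had several and 9243 had none. The cluster with the highest mean stood for each of 19505 symbols.

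Values were taken as log2(intensity + 1) without further scaling. A gene was tested when at least 3 of 11 arrays were above their own 40th percentile. limma 3.58.1 (R 4.3.3) fitted 1 mean per group over 11 arrays with a shared spread (lmFit, eBayes), and Benjamini-Hochberg adjustment ran over 12143 genes; the method was tested on simulated data. Background was the 90th percentile of 23 antigenomic probe sets on each array. A fold is given as at least that large where the mean of the dimmer group did not exceed the background's mean by more than its SD over arrays.

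Replicates are separate mice. Same-numbered arrays were not treated as paired. Named genes are the 20 largest rises and 20 largest falls without overlapping arrays, up to 6 called members of each list, the 6 smallest p, and a set always looked at (such as Il1b, Tnf and Hmox1); some that the rule named are not printed. Members and lists were chosen with earlier results of these data known. Alternatives changed the filter, pseudocount (16), scaling, samples, variance prior, choice of cluster and replicate block, and left out each array.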

Additional observations from a re-analysis of the deposited data

Results flagged for a closer look

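Of 284 group and gene pairs of 4 arrays (nearly all of the named genes in control and in resolution macrophages, in log2 levels), 13 had 1 array whose gap to its nearest neighbour filled most of the group's range by Dixon's criterion. Chance flags about 1 in 20 groups, and 13 of 284 is no more than that share. The 3 acute arrays are too few for this check.

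Among resolution arrays the gap was widest for Acod1, which makes itaconate: resolution replicate 1 was at 6.59 and the other 3 at 4.58 to 4.64. Resolution replicate 2 stood apart for 5 genes. It was above the others for the Wnt receptor Fzd4 (10.25 against 9.33 to 9.37) and for Batf3 (8.75 against 7.59 to 7.74). It was below them for the cholesterol exporter Abcg1 (13.96 against 14.26 to 14.29), for Klf10 (10.16 against 10.47 to 10.52) and for Egr2 (16.02 against 16.30 to 16.34). Resolution replicate 4 was above the others for Il6ra (14.33 against 13.69 to 13.79), Nr4a1 (14.57 against 13.78 to 13.91) and Ncf1 (11.39 against 10.90 to 10.96). Each of these genes kept its call when the array was left out.

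Among control arrays, which enter the comparison through the shared estimate of spread and the filter on low values, replicate 4 stood apart for Cxcr1 (14.72 against 12.90 to 13.09), Sod2 (12.12 against 11.96 to 11.97) and Siglecf (14.51 against 15.02 to 15.09), and replicate 1 for Gpr132 (7.21 against 6.45 to 6.56).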

How the results depend on the processing

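Leaving out single arrays gave 1069 to 1837 called genes, 550 to 993 of them higher and 519 to 844 lower, against 1755, 943 and 812; the lowest of each came without acute replicate 1. The 9 other settings gave 1455 to 1905 called genes. Of 130 called genes named in the text and followed through the alternatives, 128 kept their call and direction in every alternative that tested them, and Il6 and Cxcl2 did not. Of these 130 genes, 4 (Cd3d, Il2rb, Isg15 and Ltf) were too dim to be tested where the mean of the CpG arrays had to exceed background. Cd86, Treml4, Xcr1, Itgae and Siglech were not among the 130. Small counts of list members moved in single settings: the NF-kB and antioxidant lists gained 1 rise with the variance prior that follows the mean level, the antioxidant list also under that filter, and the interferon-gamma list kept 1 rise with no filter, under either scaling or with the replicate block. The labels do not say whether the replicate number links mice of different groups. Deviations of same-numbered arrays correlated at 0.0365 to 0.0872, which cannot show whether such mice shared a litter, day or batch. The fit with the replicate number as a block called 1455 genes. Differences near 0 changed sign when single arrays were left out: Arg1 ranged from -0.21 to 0.13, Il10 from -0.27 to 0.039, Il1b from -0.22 to 0.059, Marco from -0.23 to 0.15 and Tnf from -0.037 to 0.24. Genes not called in the report passed limma in some settings: Alas2 in 5 (adjusted p 0.00722 to 0.0483, both scalings among them), Ccr2 without resolution replicate 3 (0.0315), Il18 with a variance prior that follows the mean level (0.0229) and Il18bp after quantile normalization (0.0391). The causes were not tested. Signal over background limits Il10, Arg1, Tlr9 and most lymphocyte markers, which were not well above background.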
